A study of Mus musculus with 12 samples.

Results

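Genes that build and run mitosis were higher in colonic crypts of mice whose intestinal epithelium lacked p53. In CBPWT mice, 37 of 55 such genes were called higher after p53 deletion, against 2.29% of all genes tested. The median log2 fold change over all 55 was 1.88. Leaving out 1 library at a time gave 0 to 51 calls there, with medians of 1.66 to 2.14. In those fits 1 to 906 of all genes were called either way. In CBPAA mice the median was 1.41, but edgeR called none of the 55, as it called 0% of all genes higher there. DESeq2, a second count model, called 23 of 55 higher, against 0.471% of all genes. Of the 3 CBPAAp53ΔIEC libraries, 1 had levels like those of p53-floxed mice. A single gene, Pttg1, the securin that holds separase inactive until anaphase, did not move with the others.

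The 55 genes were taken by symbol from a table of 55471 genes, and all 55 were listed once and were among the 14610 genes with enough reads to be tested. They were sorted into 8 roles: mitotic entry (10 genes), chromosome structure (7), kinetochore (8), spindle checkpoint (4), chromosomal passenger complex (4), spindle motors and spindle proteins (10), cytokinesis (7), and anaphase and protein destruction (5). At the start of mitosis, cyclin-dependent kinase 1 with cyclins A and B drives chromosome condensation and spindle assembly. Kinetochores then tie each chromosome to spindle microtubules, and the spindle checkpoint delays anaphase until all are attached. The anaphase-promoting complex finally marks securin and cyclin B for destruction, the chromatids part and the cell divides at the midzone. In the colon these genes are transcribed mainly by transit-amplifying cells of the lower crypt, so their RNA is a widely used sign of dividing cells. In such bulk samples, fewer dividing cells and less RNA per dividing cell cannot be told apart.

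RNA was sequenced from colonic crypts of 12 C57BL/6J mice, 3 per group, released with EDTA; the study's methods give female mice at 8 weeks of age as its default. All 4 groups carried the floxed p53 allele on both copies. CBPWTp53-floxed and CBPAAp53-floxed mice kept p53, whereas CBPWTp53ΔIEC and CBPAAp53ΔIEC mice also carried Villin-Cre, which deletes it in intestinal epithelial cells and leaves other cells intact. CBPAA mice carried a knock-in in every cell that replaces phosphorylated serines of the coactivator CBP with alanines, and CBPWT mice carried normal CBP. The libraries held 11177430 to 18029125 counted reads, and the smallest count of any of the 55 genes in any library was 19.

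The labels were checked on p53 first. Trp53 RNA lay between 23.3 and 33.5 TPM (a transcript level scaled for gene length and depth) in the 6 p53-floxed libraries and between 3.26 and 6.13 TPM in the 6 p53ΔIEC libraries, so the groups did not overlap. The log2 fold change was −2.64 ± 0.22 (SE) in CBPWT mice and −2.59 ± 0.22 in CBPAA mice (edgeR adjusted p = 0.00038 and 0.0004, n = 3 per group). Crebbp, which encodes CBP, lay between 5.98 and 11.5 TPM over all libraries. The crypts were epithelial: Epcam was at 1011 TPM or more in every library, 13 of 15 stroma markers and 8 of 10 endothelium markers stayed below 1 TPM in every library, and the summed leukocyte markers reached at most 25.3 TPM. Lgr5, a marker of intestinal stem cells, lay between 3.87 and 6.51 TPM and was not called in either comparison of p53.

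Both p53ΔIEC groups held a library that stood apart. Over the 55 genes, the mean log2(CPM + 0.5), with CPM the read count of a gene scaled for depth by TMM, was 3.16, 3.27 and 2.96 in CBPWTp53-floxed replicates 1 to 3 and 3.44, 2.96 and 3.15 in CBPAAp53-floxed replicates 1 to 3. It was 4.08 in CBPWTp53ΔIEC replicate 1 against 5.20 and 5.05 in replicates 2 and 3. CBPAAp53ΔIEC replicate 3 had 3.34, against 4.88 and 4.86 in replicates 1 and 2. CBPAAp53ΔIEC replicate 3 thus lay within the range of the CBPAAp53-floxed libraries, and CBPWTp53ΔIEC replicate 1 lay between the floxed libraries and its own group. The library names in the labels end in numbers whose meaning the labels do not give. The 2 low p53ΔIEC libraries and the 6 p53-floxed libraries carried numbers below 200, and the other 4 p53ΔIEC libraries carried numbers above 200, 1 of them shared by a library of each group.

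**Figure D1:**
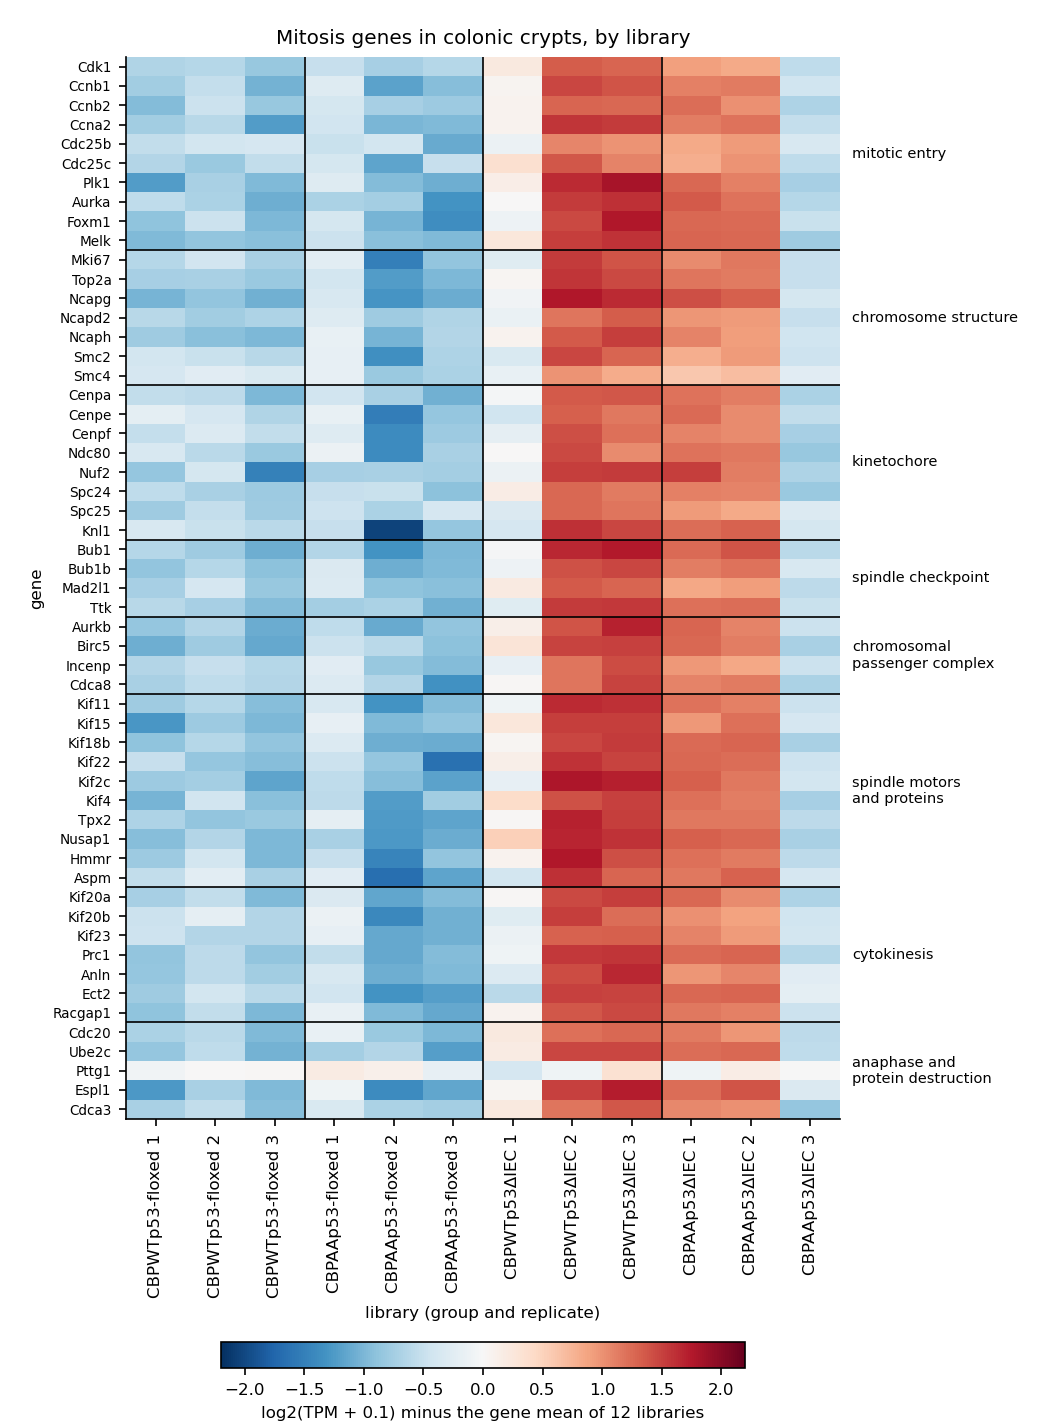
Colour shows log2(TPM + 0.1) of each gene in each library minus that gene's mean over the 12 libraries; rows are the 55 genes by role and columns are the libraries by group and replicate. Replicates 2 and 3 of CBPWTp53ΔIEC and replicates 1 and 2 of CBPAAp53ΔIEC are high in 54 rows, replicate 1 of CBPWTp53ΔIEC is intermediate, replicate 3 of CBPAAp53ΔIEC resembles the floxed libraries, and the row of Pttg1 is nearly even.

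The promoters of these genes shared short words that the choice of genes did not use. In mitosis genes, a CHR (cell cycle genes homology region, TTTGAA) is bound by MuvB complexes and CCAAT boxes are bound by NF-Y. RefSeq promoter windows on GRCm38.p6, from 250 bases before to 50 bases after the transcript start, were matched by symbol for 46 of the 55 genes. On either strand, 35 of 46 (76.1%) held TTTGAA against 20.2% of 27025 genes with a window, 33 (71.7%) held CCAAT against 41.1%, and 29 (63.0%) held both against 7.97%. The E2F words TTCCCGC or TTGGCGC were found in 8 of 46 (17.4%) against 7.79%. Words may overlap, as where a CCAAT match on the opposite strand runs into TTGGCGC, and each was then counted. The windows of Top2a, Ube2c and Hmmr are shown because they held the most TTTGAA and CCAAT matches, that of Mki67 because it was the most abundant in TPM of 5 genes tied for the next place (with Ccnb2, Cdk1, Ect2 and Cdca8), and the window of Pttg1, chosen after its values were seen, because that gene differed and held neither word. Each runs from 250 bases before to 30 bases after the start, 5′ to 3′ on the strand of the gene, with every TTTGAA or CCAAT match on either strand in capitals.
Top2a (chr11:99024160-99024439, minus strand): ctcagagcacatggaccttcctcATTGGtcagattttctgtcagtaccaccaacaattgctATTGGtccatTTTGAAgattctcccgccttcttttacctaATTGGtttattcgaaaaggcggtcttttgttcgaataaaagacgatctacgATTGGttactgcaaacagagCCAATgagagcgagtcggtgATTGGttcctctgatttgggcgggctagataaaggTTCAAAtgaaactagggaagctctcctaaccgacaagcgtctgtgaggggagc
Ube2c (chr2:164769679-164769958, plus strand): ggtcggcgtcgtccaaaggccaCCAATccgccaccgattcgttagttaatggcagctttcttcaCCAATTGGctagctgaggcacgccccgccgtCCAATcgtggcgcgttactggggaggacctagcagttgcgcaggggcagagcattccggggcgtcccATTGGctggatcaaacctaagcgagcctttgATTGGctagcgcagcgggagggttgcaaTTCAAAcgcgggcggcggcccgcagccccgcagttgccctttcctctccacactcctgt
Hmmr (chr11:40733408-40733687, minus strand): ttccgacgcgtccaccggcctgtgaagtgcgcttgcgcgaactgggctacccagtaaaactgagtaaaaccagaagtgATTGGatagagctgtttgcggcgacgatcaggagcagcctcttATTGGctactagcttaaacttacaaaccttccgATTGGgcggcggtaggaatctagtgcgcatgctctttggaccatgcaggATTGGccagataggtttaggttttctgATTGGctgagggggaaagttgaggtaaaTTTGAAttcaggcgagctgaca
Mki67 (chr7:135716350-135716629, minus strand): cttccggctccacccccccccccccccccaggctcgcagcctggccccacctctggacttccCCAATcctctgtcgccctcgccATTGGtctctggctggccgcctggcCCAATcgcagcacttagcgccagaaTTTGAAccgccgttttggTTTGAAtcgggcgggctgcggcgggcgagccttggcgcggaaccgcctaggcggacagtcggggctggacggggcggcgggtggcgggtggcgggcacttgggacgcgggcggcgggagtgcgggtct
Pttg1 (chr11:43425952-43426231, minus strand): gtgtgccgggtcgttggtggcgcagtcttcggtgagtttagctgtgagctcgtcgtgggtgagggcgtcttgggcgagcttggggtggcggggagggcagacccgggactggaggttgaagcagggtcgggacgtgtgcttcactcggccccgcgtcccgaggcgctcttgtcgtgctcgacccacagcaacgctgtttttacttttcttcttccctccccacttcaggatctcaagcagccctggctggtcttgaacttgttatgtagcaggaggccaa

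Top2a held 2 TTTGAA and 6 CCAAT matches, Ube2c 1 and 6, Hmmr 1 and 5, and Mki67 2 and 3. In Ube2c 2 CCAAT matches on opposite strands overlap, which is the longer run of capitals in its line. Birc5, Mad2l1, Melk, Ncaph, Nuf2, Nusap1 and Pttg1 held neither word, and a missing match says only that these letters are not in the window. TTTGAA matches of the 46 genes lay close to the start: 22 genes (47.8%) had one that began in the 50 bases after it, against 2.18% of all genes. CCAAT matches lay just upstream, with 22 genes (47.8%) in the 50 bases before the start against 9.44%, and 19 (41.3%) in the 50 bases before those against 13.0%. Of 47 further mitosis genes with a window, 26 (55.3%) held TTTGAA, 34 (72.3%) CCAAT, 19 (40.4%) both and 13 (27.7%) an E2F word. Of genes used in DNA replication, 6 of 36 (16.7%) held TTTGAA, 21 (58.3%) CCAAT and 20 (55.6%) an E2F word. CCAAT was also found in 10 of 16 p53 target genes (62.5%), and an E2F word in 5 of 12 RNA polymerase and housekeeping genes (41.7%).

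**Figure D2:**
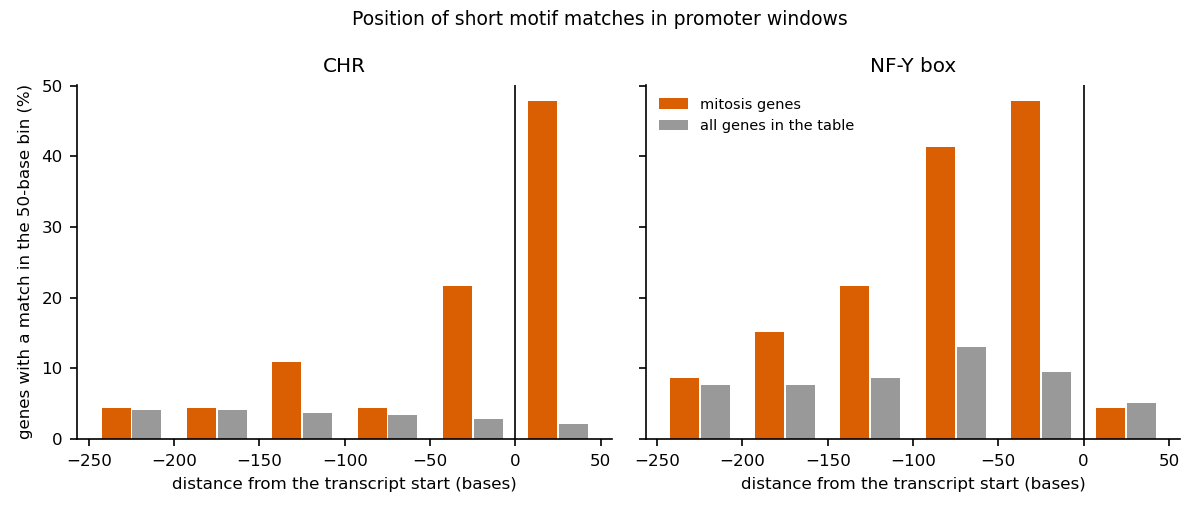
Bars show the percent of genes with at least 1 match beginning in each 50-base bin, by distance from the transcript start in bases, for the 46 mitosis genes and for 27025 genes; left, the CHR, right, the NF-Y box. The CHR bar of the mitosis genes is highest in the bin after the start (47.8%) and the NF-Y box bar in the bin before it (47.8%).

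The first comparison asked what loss of p53 does in crypts with normal CBP. A gene was called if its adjusted p was below 0.05 with a log2 fold change beyond 0.5 in either direction (edgeR quasi-likelihood test, Benjamini-Hochberg over all 14610 genes). In CBPWTp53ΔIEC vs. CBPWTp53-floxed mice, 37 of the 55 genes were called higher and none lower, whereas 2.29% of all genes tested were called higher. All 55 fold changes were positive, with a median of 1.88 against 0.01 over all genes. In scaled CPM the 3 p53ΔIEC libraries all lay above the 3 floxed libraries for 54 of the 55 genes, against 16.1% of all genes. In TPM, where no share over all genes is given, they did so for 49, with Cenpe, Knl1, Aspm, Kif20b, Ect2 and Pttg1 as the others. At an unadjusted p under 0.05, 54 of 55 were higher against 12.6% of all genes. CBPWTp53ΔIEC replicate 1 was the lowest of its group for 54 of 55 genes, against 44.7% of all genes. The calls rested on few libraries: 51 genes were called without CBPWTp53ΔIEC replicate 1, where 4.33% of all genes were called higher. None was called without replicate 2 or 3 of that group, where 7 and 4 of all genes were called either way. None was called without CBPWTp53-floxed replicate 1, 2 or 3, where 7, 2 and 1 of all genes were called, so calls were lost over all genes. Without CBPAAp53-floxed replicate 1 or 3, which enter the shared estimate of the spread, 18 and 11 were called, against 1.68% and 1.19% of all genes. With total counts in place of TMM 4 genes were called (Cdk1, Cdc25c, Ncaph and Kif15), against 0.589% of all genes. With no filter on low counts 3 were called (the same without Cdk1), against 0.906%. Over the fits without 1 library the median stayed between 1.66 and 2.14.

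Among the genes of mitotic entry, 8 of 10 were called higher. Ccna2, which encodes cyclin A2, was at 16.0, 17.9 and 11.6 TPM in CBPWTp53-floxed mice and at 29.0, 81.9 and 79.7 TPM in CBPWTp53ΔIEC mice. The p53ΔIEC libraries were all higher, and the fold was 4.12 (log2 2.04 ± 0.44 SE, edgeR adjusted p = 0.040). Plk1, the kinase of centrosome maturation and mitotic commitment, went from 6.12, 8.75 and 7.29 TPM to 16.0, 44.9 and 51.0 TPM without overlap, the largest change of this role (log2 2.30 ± 0.48, edgeR adjusted p = 0.034). Ccnb2, cyclin B2, was among the most abundant of the role and rose 3.27-fold. Cdc25b, a phosphatase that activates cyclin-dependent kinases, had the smallest value (log2 1.18 ± 0.30, edgeR adjusted p = 0.052) and was not called.

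Genes of chromosome structure included the most abundant of the 55 in TPM. This was Mki67, which encodes the Ki-67 protein that coats mitotic chromosomes and was at 23.8, 27.4 and 22.3 TPM in CBPWTp53-floxed mice and at 30.6, 107 and 95.6 TPM in CBPWTp53ΔIEC mice. Replicate 1 of the p53ΔIEC group was only slightly above the floxed libraries, and Mki67 was not called (log2 1.64 ± 0.49, edgeR adjusted p = 0.097). Top2a, the topoisomerase that untangles sister chromatids, went from 13.4, 13.5 and 12.6 to 22.9, 66.7 and 61.2 TPM. It was called with a 3.77-fold rise, and its groups did not overlap. Ncapg, a condensin I subunit, had the largest log2 fold change of all 55 genes (2.35 ± 0.49, edgeR adjusted p = 0.034), from a mean of 1.39 ± 0.10 TPM (SD, n = 3) to 7.25 ± 3.96. Smc4, the ATPase shared by both condensins, had the smallest called change at 0.94 ± 0.24. In this role 5 of 7 genes were called higher.

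Kinetochore genes had fewer calls at a median log2 fold change of 1.64, with all 8 fold changes positive. Spc24 and Spc25, both subunits of the NDC80 complex, were the 2 of 8 called higher. Spc24 was at 6.56, 5.88 and 5.53 TPM in CBPWTp53-floxed mice and at 10.8, 23.2 and 21.5 TPM in CBPWTp53ΔIEC mice. The 3 p53ΔIEC values were higher than all floxed values (log2 1.63 ± 0.39, edgeR adjusted p = 0.044). Nuf2, another subunit of that complex, had the largest value of the role but a low level of 0.76 ± 0.32 against 3.34 ± 1.76 TPM (SD, n = 3), and its log2 fold change of 2.11 ± 0.54 was not called. Cenpe, a kinesin of the kinetochore, had the smallest (log2 1.28 ± 0.50), with 3.29 TPM in CBPWTp53ΔIEC replicate 1, which is within the floxed range of 2.80 to 3.86 TPM, although above it in scaled CPM. Cenpa, the histone variant that marks centromeres, had a log2 fold change of 1.72 ± 0.44 that was not called.

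All 4 spindle checkpoint genes rose. Bub1b, which encodes the inhibitor BubR1, went from 3.52, 4.21 and 3.47 TPM to 6.03, 17.5 and 18.3 TPM without overlap (log2 1.88 ± 0.40, edgeR adjusted p = 0.034). Bub1 had the largest log2 fold change of the 4 (2.17) and Mad2l1 the smallest (1.68). Of the chromosomal passenger complex, which corrects faulty attachments, 3 of 4 genes were called higher. Aurkb, its kinase, was at 7.05, 8.19 and 6.00 TPM in CBPWTp53-floxed and at 14.1, 33.8 and 41.9 TPM in CBPWTp53ΔIEC mice, a 4.16-fold rise. Birc5, the survivin subunit, rose 4.56-fold and Incenp, the scaffold, 2.91-fold.

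Of the spindle motors and spindle proteins 9 of 10 were called higher, with a median log2 fold change of 2.00. Kif15, a kinesin that backs up Kif11 in keeping spindle poles apart, had the lowest adjusted p of the 55 genes (log2 2.31 ± 0.38, edgeR adjusted p = 0.024), with 0.77, 1.11 and 0.96 TPM in CBPWTp53-floxed mice and 2.39, 5.93 and 5.90 TPM in CBPWTp53ΔIEC mice. Nusap1, a microtubule-bundling protein, was at 4.16, 5.12 and 4.02 TPM and at 11.7, 26.1 and 24.5 TPM. Its groups were apart even at replicate 1, and it rose 4.68-fold. Kif11 rose 4.06-fold. Aspm, a spindle pole protein, was the exception among the 10 (log2 1.57 ± 0.53, edgeR adjusted p = 0.12).

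Of the cytokinesis genes 2 of 7 were called higher, Anln, which binds the contractile ring, and Racgap1, a subunit of centralspindlin. All 7 fold changes were positive, with a median log2 fold change of 1.87. Racgap1 went from 3.77, 4.81 and 3.53 TPM to 7.45, 18.4 and 19.4 TPM, all above the floxed libraries (3.69-fold). Prc1, the midzone crosslinker, had the largest value of the role and missed the threshold (log2 1.95 ± 0.48, edgeR adjusted p = 0.054), as did Kif20a (1.87 ± 0.46) and Kif20b (1.46 ± 0.44), both midzone kinesins. In the last role 4 of 5 genes were called higher. Cdc20, which activates the anaphase-promoting complex, was at 19.5, 21.0 and 16.1 TPM in CBPWTp53-floxed and 37.0, 73.9 and 76.6 TPM in CBPWTp53ΔIEC mice (3.30-fold). Espl1, which encodes separase, rose 4.83-fold and Cdca3, which helps degrade mitotic inhibitors, 3.30-fold.

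Pttg1 was at 18.6, 19.9 and 19.9 TPM in CBPWTp53-floxed mice, 22.2, 21.2 and 17.2 in CBPAAp53-floxed mice, 15.2, 18.3 and 24.7 in CBPWTp53ΔIEC mice, and 18.5, 22.0 and 19.5 in CBPAAp53ΔIEC mice. All 4 groups overlapped. Its log2 fold change was 0.01 ± 0.12 in CBPWT mice (edgeR adjusted p = 0.97) and −0.14 ± 0.12 in CBPAA mice (edgeR adjusted p = 0.62).

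**Figure D3:**
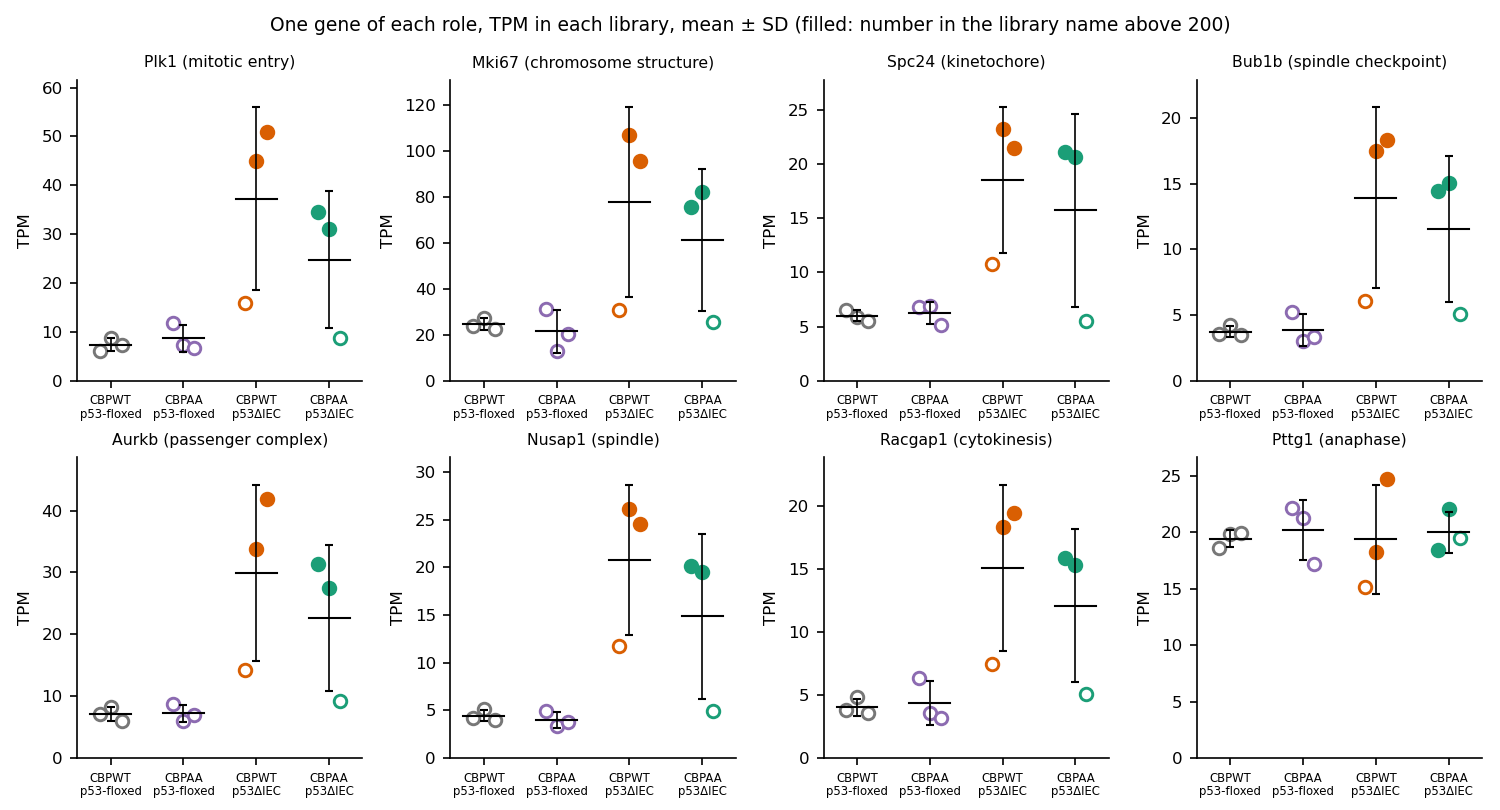
Points show TPM per library for 1 gene of each role, with the group mean (line) and SD (bar, n = 3); filled points are libraries whose name carries a number above 200. In 7 panels the 4 filled points are the highest, CBPWTp53ΔIEC replicate 1 is above the CBPWTp53-floxed libraries and CBPAAp53ΔIEC replicate 3 sits near the floxed libraries, while Pttg1 lies between 15.2 and 24.7 TPM in all libraries.

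The second comparison asked the same of mice with CBP that cannot be phosphorylated at these serines, and it shares no library with the first. In CBPAAp53ΔIEC vs. CBPAAp53-floxed mice 0 of 55 genes were called by edgeR, as 0% of all genes were called higher. With DESeq2, a second count model, 23 of 55 were called higher, against 0.471% of all genes. Of the 55 fold changes 54 were positive, the median was 1.41 against 0.01 over all genes, and 54 had an unadjusted p under 0.05 and were higher, against 7.19% of all genes. The adjusted p of the 55 genes ran from 0.32 to 0.62. In scaled CPM the groups were apart for 12 of 55 genes, against 7.86% of all genes. Without CBPAAp53ΔIEC replicate 3, 49 of 55 were called, against 1.76% of all genes, and the median was 1.80. Leaving out any other library gave 0 calls among the 55, and 1 to 4 of all genes were called either way.

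CBPAAp53ΔIEC replicate 3 was the lowest of its group for 54 of 55 genes, against 41.3% of all genes. Relative to the 3 CBPAAp53-floxed libraries, in scaled CPM, it was above all for 12 genes, within their range for 38 and below all for 5. The share above all, 12 of 55, was near the 21.3% of all genes above all 3 floxed libraries in this library. The median log2 difference of the 55 genes from the mean of those libraries was 0.19, against 1.75 for CBPAAp53ΔIEC replicates 1 and 2. The 12 genes above all floxed libraries were Aurka, Ncapg, Knl1, Bub1, Bub1b, Ttk, Aurkb, Kif22, Kif2c, Nusap1, Anln and Ect2, and the 5 below were Ccnb2, Spc24, Birc5, Pttg1 and Cdca3.

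The values by role followed the same order of libraries. Mki67 was at 31.2, 12.9 and 20.1 TPM in CBPAAp53-floxed mice and at 75.7, 81.9 and 25.7 TPM in CBPAAp53ΔIEC mice (log2 1.39 ± 0.48). Replicate 3 of the p53ΔIEC group fell within the floxed values. Plk1 was at 11.8, 7.39 and 6.77 TPM and at 34.6, 31.1 and 8.64 TPM, again with replicate 3 inside the floxed range (log2 1.39 ± 0.47). Spc24 was at 6.80, 6.88 and 5.11 TPM and at 21.1, 20.6 and 5.47 TPM, with the same overlap (log2 1.18 ± 0.39). Nusap1 had the lowest unadjusted p of the 55 (log2 1.76 ± 0.44, edgeR adjusted p = 0.32), with 4.90, 3.31 and 3.76 TPM and 20.2, 19.5 and 4.90 TPM, where replicate 3 equalled the highest floxed library to 3 digits.

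Aurkb, at 8.66, 5.92 and 7.02 TPM in CBPAAp53-floxed mice, was at 31.3, 27.4 and 9.26 TPM in CBPAAp53ΔIEC mice (log2 1.52 ± 0.41). All 3 p53ΔIEC libraries were higher, replicate 3 by a small margin. Racgap1 was at 6.33, 3.54 and 3.20 TPM and at 15.9, 15.3 and 5.07 TPM (log2 1.36 ± 0.41), and Cdc20 between 16.0 and 28.5 TPM and at 70.2, 62.9 and 21.4 TPM (log2 1.18 ± 0.36). In both, replicate 3 lay among the floxed values. By role, the median log2 fold change ran from 1.14 for chromosome structure to 1.57 for spindle motors and spindle proteins.

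**Figure D4:**
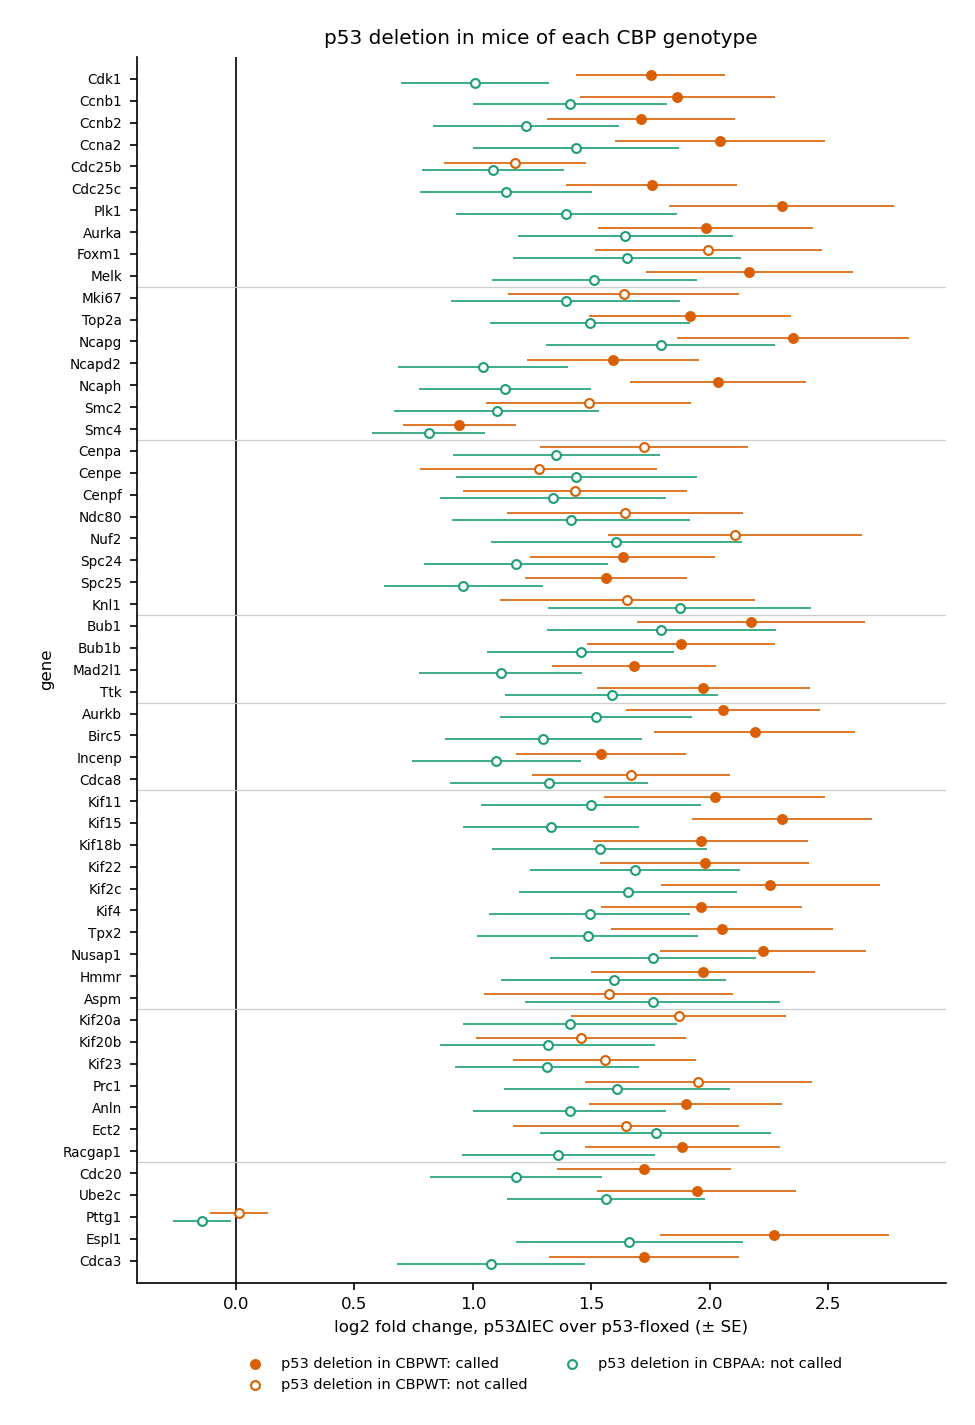
Points show the log2 fold change of each of the 55 genes, p53ΔIEC over p53-floxed, with its SE, in CBPWT mice (orange) and CBPAA mice (green). Filled points were called by edgeR. All points but those of Pttg1 lie at 0.81 or above, and 37 orange points and 0 green points are filled.

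Whether the effect of p53 deletion differed between CBP genotypes was tested as an interaction. None of the 55 genes was called by edgeR, which called 0.00684% of all genes, or by DESeq2, which called 30 of all genes. Of the 55 genes, 0 had an unadjusted p under 0.05. The difference, CBPAA minus CBPWT, had a median of −0.45 and ran from −0.98 ± 0.53 (SE) for Kif15 to 0.22 ± 0.76 for Knl1, a kinetochore scaffold. It was −0.07 without CBPAAp53ΔIEC replicate 3 and −0.70 without CBPWTp53ΔIEC replicate 1. Averaged over both CBP genotypes, 53 of 55 genes were called higher in p53ΔIEC mice, against 2.77% of all genes, with a median log2 fold change of 1.67. The 2 not called were Cenpe (edgeR adjusted p = 0.059) and Pttg1 (edgeR adjusted p = 0.69). Leaving out 1 library gave 8 to 54 calls. Without CBPWTp53-floxed replicate 3, 8 were called, against 0.517% of all genes called higher. Without its replicates 1 and 2 there were 28 and 34, against 1.11% and 1.19%. There were 21 without CBPAAp53-floxed replicate 3 (1.01% of all genes), 22 without CBPWTp53ΔIEC replicate 3 (0.92%) and 27 without CBPAAp53ΔIEC replicate 1 (0.926%). The 54 calls came without CBPWTp53ΔIEC replicate 1 (4.9%) or CBPAAp53ΔIEC replicate 3 (4.67%), so calls over all genes moved with those of the 55.

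Between CBP genotypes the 55 genes showed no called difference. In CBPAAp53-floxed vs. CBPWTp53-floxed mice 0 were called by edgeR or DESeq2 or had an unadjusted p under 0.05 (0% of all genes were called), and the median log2 fold change was 0.07, from −0.47 ± 0.57 (SE) for Knl1 to 0.50 ± 0.39 for Kif15. In CBPAAp53ΔIEC vs. CBPWTp53ΔIEC mice 0 were called by either tool or at an unadjusted p under 0.05. Over all genes edgeR called 0.00684% and DESeq2 called 1 gene. Of the 55 genes, 54 were lower in CBPAAp53ΔIEC mice. The median was −0.34, with 0.02 without CBPAAp53ΔIEC replicate 3 and −0.64 without CBPWTp53ΔIEC replicate 1. Plk1 had the lowest value there (−0.59 ± 0.44).

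The number in the library name moved with these genes. All 4 libraries numbered above 200 were p53ΔIEC, and both p53ΔIEC libraries numbered below 200 were the low ones. The split at 200 was chosen after these values were seen, so a term for it marks the 4 high libraries. Below 200, each genotype had 1 p53ΔIEC library to set against its floxed libraries. A fit with this term therefore rests mainly on the low p53ΔIEC libraries. With number above or below 200 as a term beside the 4 groups, 4 of 55 genes, Aurkb, Top2a, Nusap1 and Kif15, were called higher for p53 deletion averaged over both genotypes (0.76% of all genes), and the median log2 fold change fell from 1.67 to 0.61. In that fit 23 genes were called in CBPWT mice (median 0.87), against 1.64% of all genes, and 0 in CBPAA mice (median 0.35), against 0.0411%. Without both low-numbered p53ΔIEC libraries 54 of 55 were called in each genotype, with medians of 2.14 and 1.80, and 6.09% and 5.01% of all genes were called higher. In CBPWTp53ΔIEC replicate 1, 54 of 55 genes were above all 3 CBPWTp53-floxed libraries, against 39.0% of all genes, and the median log2 difference was 1.02, against 2.1 for replicates 2 and 3. What the number stands for was not tested. Its part in the result cannot be told apart from that of p53 deletion, because all libraries numbered above 200 were p53ΔIEC.

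Markers of small intestine and Paneth cells also moved with the low libraries. Of 14 such genes 13 were tested and 0 called in either comparison of p53, with Lyz1, Mmp7 and Fabp6 at an unadjusted p under 0.05 in CBPWT mice. Their summed TPM was 19470 in CBPWTp53ΔIEC replicate 1 and 5713 in CBPAAp53ΔIEC replicate 3. It was 2920 in CBPAAp53ΔIEC replicate 1, 1776 in CBPAAp53-floxed replicate 2 and between 196 and 394 in the other 8. The most abundant, the defensin Defa24, reached 8290 TPM in CBPWTp53ΔIEC replicate 1 and was listed at 0 in all CBPWTp53-floxed libraries. Lyz1, the Paneth cell lysozyme, was at 2281 and 789 TPM in the 2 low p53ΔIEC libraries and at 410 TPM in CBPAAp53ΔIEC replicate 1, a library with high mitosis genes. Xist, which silences an X chromosome in female cells, was at 0.68 TPM in CBPAAp53-floxed replicate 1 and between 65.9 and 168 TPM elsewhere, while summed Y chromosome genes reached at most 0.042 TPM. Without that library 0 of the 55 mitosis genes were called in CBPAA mice, where 4 of all genes were called either way, and the median was 1.58. The part of these markers in the results was not tested.

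Other genes of the cell cycle were taken from lists written by function. Of 59 further mitosis genes, 34 were called higher in CBPWTp53ΔIEC vs. CBPWTp53-floxed mice, against 2.29% of all genes. All 59 had a positive log2 fold change, with a median log2 fold change of 1.65. Pbk, a mitotic kinase, had the largest (2.49 ± 0.45, edgeR adjusted p = 0.028), next to Cenpw, a centromere protein (2.47 ± 0.35, edgeR adjusted p = 0.013), and Zwint, a kinetochore protein, the smallest (0.02 ± 0.09). Of DNA replication genes 31 of 45 were called higher and all 45 fold changes were positive, with a lower median of 1.12. The largest were those of Tk1, thymidine kinase (1.99 ± 0.35), and Rrm2, a ribonucleotide reductase subunit (1.83 ± 0.27). Rfc1, a clamp loader subunit, had the smallest value (0.27 ± 0.11). Core subunits of the anaphase-promoting complex and cohesin gave 0 calls of 25 and a median of 0.12, from −0.36 for Nipbl, the cohesin loader, to 0.61 for Anapc15; Anapc15, Fzr1, Smc1a, Rad21 and Mau2 had an unadjusted p under 0.05. Of 14 genes tested for mitotic brakes and the MuvB core 0 were called, Wee1, Mastl, Rbbp4, Rbl2 and Tfdp1 had an unadjusted p under 0.05, and the median was 0.19. Rbl2, which encodes the p130 protein, had the lowest value there (−0.45 ± 0.11), and Mastl, the Greatwall kinase, the highest (1.00 ± 0.35).

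Among p53 target genes 7 of 20 were called lower, against 0.856% of all genes, and none was called higher, with a median of −0.27. Eda2r, a receptor of the tumour necrosis factor family, fell most, with 0.70, 0.60 and 0.92 TPM in CBPWTp53-floxed libraries and 0, 0.028 and 0 TPM in CBPWTp53ΔIEC libraries. Sesn1 (0.26 ± 0.35) and Plk3 (0.18 ± 0.43) had the largest values of the list and were not called. Cdkn1a, the p21 inhibitor, did not pass the test (−0.02 ± 0.20). Housekeeping and RNA polymerase genes gave 0 calls of 14 and a median of 0.17, with 6 at an unadjusted p under 0.05, from −0.42 ± 0.17 for Eef1a1, a translation factor, to 0.40 ± 0.24 for B2m, a subunit of MHC class I, and 0.46 ± 0.10 for Gapdh, a glycolytic enzyme. Of the markers of stem cells, absorptive colonocytes, goblet, enteroendocrine and tuft cells, 1 was called in CBPWT mice, Saa1, an acute-phase gene of colonocytes, which fell. Of 15 stroma markers 2 were tested and 1 was called, Pdgfrb, a growth factor receptor of mesenchymal cells and pericytes, at 5.66, 4.99 and 5.96 TPM in CBPWTp53-floxed and 1.81, 2.84 and 3.81 TPM in CBPWTp53ΔIEC mice. It fell without overlap (log2 −0.97 ± 0.22, edgeR adjusted p = 0.034), also on average over both genotypes (−0.86 ± 0.15, edgeR adjusted p = 0.012), and its part in the results was not tested. In CBPAA mice none of the further mitosis genes or replication genes was called, with medians of 1.16 and 0.55. There 2 p53 target genes, Eda2r and Ephx1, were called lower, against 0.0274% of all genes. The mean log2 level of the p53 target list was 3.76 to 3.88 in the 6 p53ΔIEC libraries, against 4.28 to 4.40 in the floxed libraries. This included both libraries in which the mitosis genes were low. The mean does not describe every target. Of the 20 genes, 14 had a negative and 6 a positive fold change in each genotype, with medians of −0.27 in CBPWT and −0.22 in CBPAA mice.

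**Figure D5:**
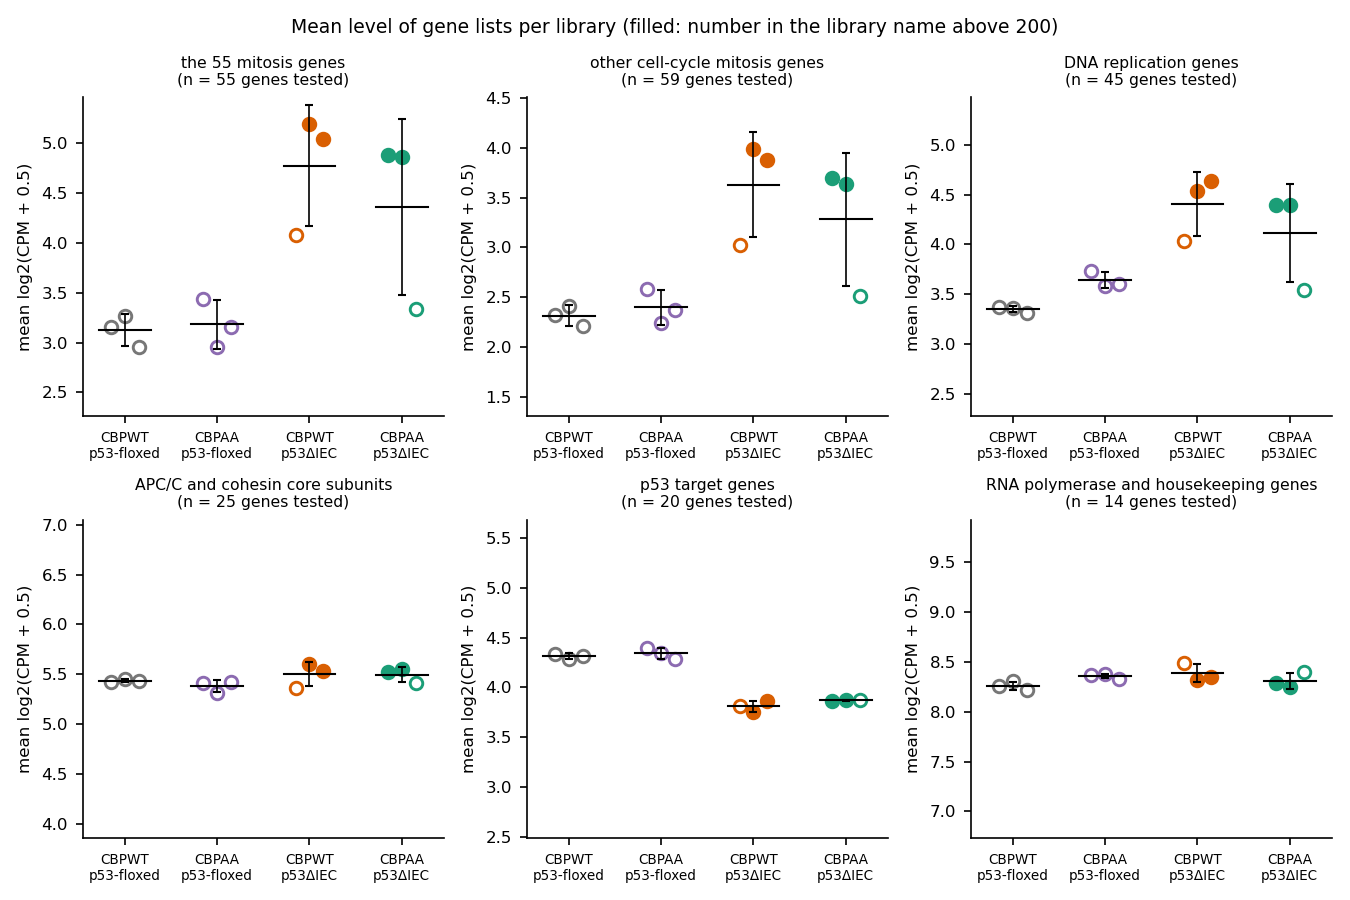
Points show the mean log2(CPM + 0.5) of each gene list per library, with the group mean (line) and SD (bar, n = 3); filled points are libraries whose name carries a number above 200, and all panels span the same number of log2 units. The mitosis lists and DNA replication genes separate filled from open p53ΔIEC points. The means of the p53 target list in all 6 p53ΔIEC libraries lie together below those of the floxed libraries.

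All but Pttg1 also varied together over the libraries. The first principal component of the log2 levels of the 55 genes held 96.6% of their variance over the 12 libraries. Their mean levels over all libraries ran from 1.67 TPM for Ndc80 to 46.2 TPM for Mki67, with a median of 8.21 TPM. Some counts cannot be assigned with certainty. Exons of Ccna2, Cdc20, Cdc25b, Cdc25c, Cdca8, Kif20a, Kif22, Kif4, Ncapg, Nusap1, Plk1, Prc1 and Ube2c overlap a gene on the opposite strand, and whether counting used strand is not stated in the sources used here. Foxm1, Ncapd2 and Top2a overlap a gene on the same strand. Ccnb1 has near-identical copies, of which Ccnb1-ps, with 99.2% identity over 1287 bases, was at 0.23 to 1.73 TPM, against at least 5.08 TPM for Ccnb1.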

How the data were processed

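RNA of colonic crypts from 12 mice was prepared with a stranded TruSeq mRNA kit, per the labels. The authors deposited 1 table that holds, for each gene, the raw count and the TPM of every library, and log2 fold changes, p-values and adjusted p-values of their own comparisons, which were not used. The submitters' processing notes name fastp 0.20.0, FastQC 0.11.9, HISAT2 2.1.0, SAMtools 1.9, Subread 2.0.1 with featureCounts, and GRCm38.

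The counts of the 12 libraries were fitted as 4 groups with the robust quasi-likelihood method of edgeR 4.0.16 in R 4.3.3, after filterByExpr (minimum count 10) and TMM scaling; DESeq2 1.42.0 was an alternative. Each SE is the log2 fold change divided by the root of its F value. A call needed an adjusted p below 0.05 with a log2 fold change beyond 0.5. The steps were tested on simulated data. TPM served for levels. Precision is limited by 3 mice per group and by totals of 11177430 to 18029125 reads.

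The genes and lists were chosen with earlier results of these data known, so no test was made over a list. Named were, per role, the 2 genes with the highest mean TPM and those with the largest and smallest log2 fold change in CBPWT mice, of each further list the 2 largest and the smallest, and of each marker list the most abundant and defining genes; Spc25, Anln, Knl1, Ube2c, Ephx1, Saa1 and the genes listed by name for overlap, motif or position were added after their values were seen. Exon overlaps and copies (alignments of at least 200 bases at 95% identity or more) were found in GENCODE M21, which held 55144 of the 55471 identifiers. Alternatives were other scalings, filters and tools, a replicate block, leaving out each library, and the fits with library number, which were added after the data were seen.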

Additional observations from a re-analysis of the deposited data

How the results depend on the processing

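The median change over the 55 genes kept its sign in both comparisons of p53 under all alternatives tried, but the number of calls did not keep its size. In CBPWTp53ΔIEC vs. CBPWTp53-floxed mice, 37 calls became 4 with total counts in place of TMM (Cdk1, Cdc25c, Ncaph and Kif15), 3 with no filter on low counts (Cdc25c, Ncaph and Kif15), and 50 with DESeq2. In that comparison DESeq2 called 858 of all genes either way. Averaged over both CBP genotypes, 53 calls became 29 with no filter, where 464 of all genes were called either way. Leaving out 1 library at a time gave 0 to 51 calls in CBPWT mice (medians 1.66 to 2.14), 0 to 49 in CBPAA mice (medians 1.19 to 1.80) and 8 to 54 on average (medians 1.55 to 1.84). Over all genes, those fits called 1 to 906, 1 to 326 and 105 to 1073 genes either way. The medians of the 2 CBP comparisons ranged from −0.08 to 0.19 with p53 and from −0.64 to 0.02 without p53, and that of the interaction from −0.70 to −0.07. In CBPAA mice DESeq2 made 23 calls where edgeR made 0.

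With library number as a term, chosen after seeing the data, calls were 23 in CBPWT mice, 0 in CBPAA mice and 4 on average, with medians of 0.87, 0.35 and 0.61. Below 200 that fit had only 1 p53ΔIEC library per genotype. Without both p53ΔIEC libraries numbered below 200, calls in CBPAA mice were 54. Pttg1 changed sign in CBPWT mice, to −0.009 with no filter, −0.021 with the number term and between −0.083 and 0.069 when 1 library was left out, and was called in none of these. The cause of these changes was not tested; with 1 library left out, fewer samples remain.

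Replicate numbers are shared between groups in the labels, but nothing says that they mark a litter or a day. Deviations of same-numbered libraries from their group means correlated between −0.53 and 0.55 over all genes. Deviations within a group depend on one another, so these values cannot show whether same-numbered libraries share a litter or a day. With the replicate block the calls were 0 in CBPWT mice, 0 in CBPAA mice and 44 on average. Over all genes, 32, 2 and 304 were called either way in these fits.

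Depth limits genes with few reads: Nuf2 had as few as 19 in a library.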
